A study of Mus musculus with 6 samples.

Results

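The cytosolic and mitochondrial chaperones, proteins that help other proteins fold, were followed here in mouse cells labelled as regulatory T-cells CD4+CD25+. Members were genes with names starting in Hspa, Hspb, Hspd, Hspe, Hsph or Hsp9, the numbered Dnaja, Dnajb and Dnajc genes, and Cct2 to Cct8, without the endoplasmic reticulum (ER) genes Hspa5, Hsp90b1, Dnajb9, Dnajb11 and Dnajc3. Each gene was represented by its brightest probe set among those with 1 gene symbol, which gave 64 members of 12393 genes. The rule goes by name, so some members have other roles: Hspb11, also called Ift25, belongs to intraflagellar transport, Dnajc1, Dnajc10, Dnajc14 and Dnajb12 are ER proteins, and Dnajc9 is a histone chaperone. Hsp90ab1 (the other cytosolic HSP90 gene) and Hsf1 (the gene of heat shock factor 1) were not analysed here.

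The samples were 3 of genotype HDAC3-fl/fl_FOXP3cre, called Hdac3 deleted here, and 3 of wild type, all on the C57BL6 background and with no treatment in the labels. The comparison asks how gene expression differs where Hdac3 is deleted. Hdac3 encodes a histone deacetylase, and a Cre named for FOXP3 is meant to act in cells that express Foxp3, the lineage factor of regulatory T cells. Other label fields of the Hdac3 deleted samples read HDAC11 and HDACII, against their titles and genotype. Neither age nor separate animals are given, so the spread behind each p-value is that between these samples and may be technical. Total RNA was hybridised to an Affymetrix Mouse430a array per sample, and values are log2 signals after RMA (robust multiarray average). Differences are Hdac3 deleted less wild type on the log2 scale, errors of means are SD with n = 3 in each group, and each adjusted p comes from limma with Benjamini-Hochberg adjustment over all 12393 genes. A gene was called higher or lower at an adjusted p under 0.05. Signals of different genes are not comparable with each other.

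HSP70 proteins hold unfolded stretches of protein. They are driven by J proteins (the Dnaj genes), which deliver clients and speed ATP hydrolysis, and by exchange factors such as the HSP110 proteins, which release ADP. HSP90 finishes the folding of kinases and receptors, the TRiC ring built from the Cct gene products folds actin and tubulin, and Hspd1 with its lid Hspe1 forms the folding chamber of mitochondria. Many of these genes are known targets of heat shock factor 1, which binds repeats of the unit GAA in alternating orientation, the heat shock element.

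The groups differed widely in markers of cell type. All 11 macrophage markers rose, with a mean level of 12.05 to 12.09 in Hdac3 deleted samples and 5.19 to 5.22 in wild type samples, and all 9 neutrophil markers rose, at 11.58 to 11.59 in Hdac3 deleted samples and 4.52 to 4.895 in wild type samples. The 4 CD3 complex genes fell, at 10.73 to 10.77 in Hdac3 deleted samples and 12.17 to 12.26 in wild type samples, and of 7 cell cycle genes 6 rose and 1 fell. Of 4 B cell genes 1 rose (Cd79b) while Ms4a1 and Pax5 were at background level, of 3 natural killer genes 2 rose, of 4 dendritic cell genes 2 rose, and of 2 erythroid genes 1 rose (Alas2) while Hba-a1 was at background level. Foxp3, which defines the labelled cell type, was at background level in both groups. Of the other regulatory T cell markers, all above background, Il2ra rose by 0.71, Ikzf2 and Tnfrsf18 fell by 1.58 and 0.86, and Ctla4 was not called (0.073, adjusted p = 0.401). Hdac3 measured 8.49 ± 0.0243 in Hdac3 deleted samples and 9.04 ± 0.0279 in wild type samples, and fell by 0.55 (SE 0.0503, adjusted p = 7.45e-05). Whether its probes lie in the deleted part is not given in the sources used here. Hdac11, the gene of the other label field, measured 4.89 ± 0.147 in Hdac3 deleted samples and 5.47 ± 0.0628 in wild type samples, the first at background level, and fell as well (-0.58, adjusted p = 0.000864), so these levels do not settle which label is right. The part of these shifts in the chaperone values was not tested. In RNA measured from many cells together, fewer cells of a type and less RNA per cell cannot be told apart.

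Chaperone genes were mostly lower in Hdac3 deleted samples. Of 64 members 34 fell (53.1%), 8 rose (12.5%) and 22 did not pass the test. Over all genes 38.8% were called lower, 22.4% higher and 61.2% in either direction. Counts by role below are to be set beside these shares. The members' median difference was -0.25, beside -0.17 over all genes. At 2-fold or more, 8 of 64 members fell, beside 553 of 12393 genes (4.46%). In the other direction 1 of 64 members rose, beside 1120 of 12393 genes (9.04%). The groups did not overlap in 46 members, as in 67.4% of all genes, which sets that count close to the background share.

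This balance moved with the scaling of the arrays. Under median centring 44 members were lower and 4 higher (58.3% and 17.8% of all genes), and under cyclic loess 20 were lower and 15 higher (2912 and 3717 of all 12393 genes). The median of all genes was -0.33 under median centring and near 0 under cyclic loess, and that of the members -0.41 and -0.050. The 8 members that fell 2-fold were called lower under each scaling, at -2.02 to -0.795 under cyclic loess. At background level in both groups, at or under 5.16, the top signal of the bacterial controls, were 10 members: Hspa1a, Hspa1l, Hspa12b, Hspb2, Hspb3, Hspb8, Dnajb3, Dnajb7, Dnajc5b and Cct6b. Of these Dnajc5b and Cct6b are among the 34 called lower.

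**Figure D1:**
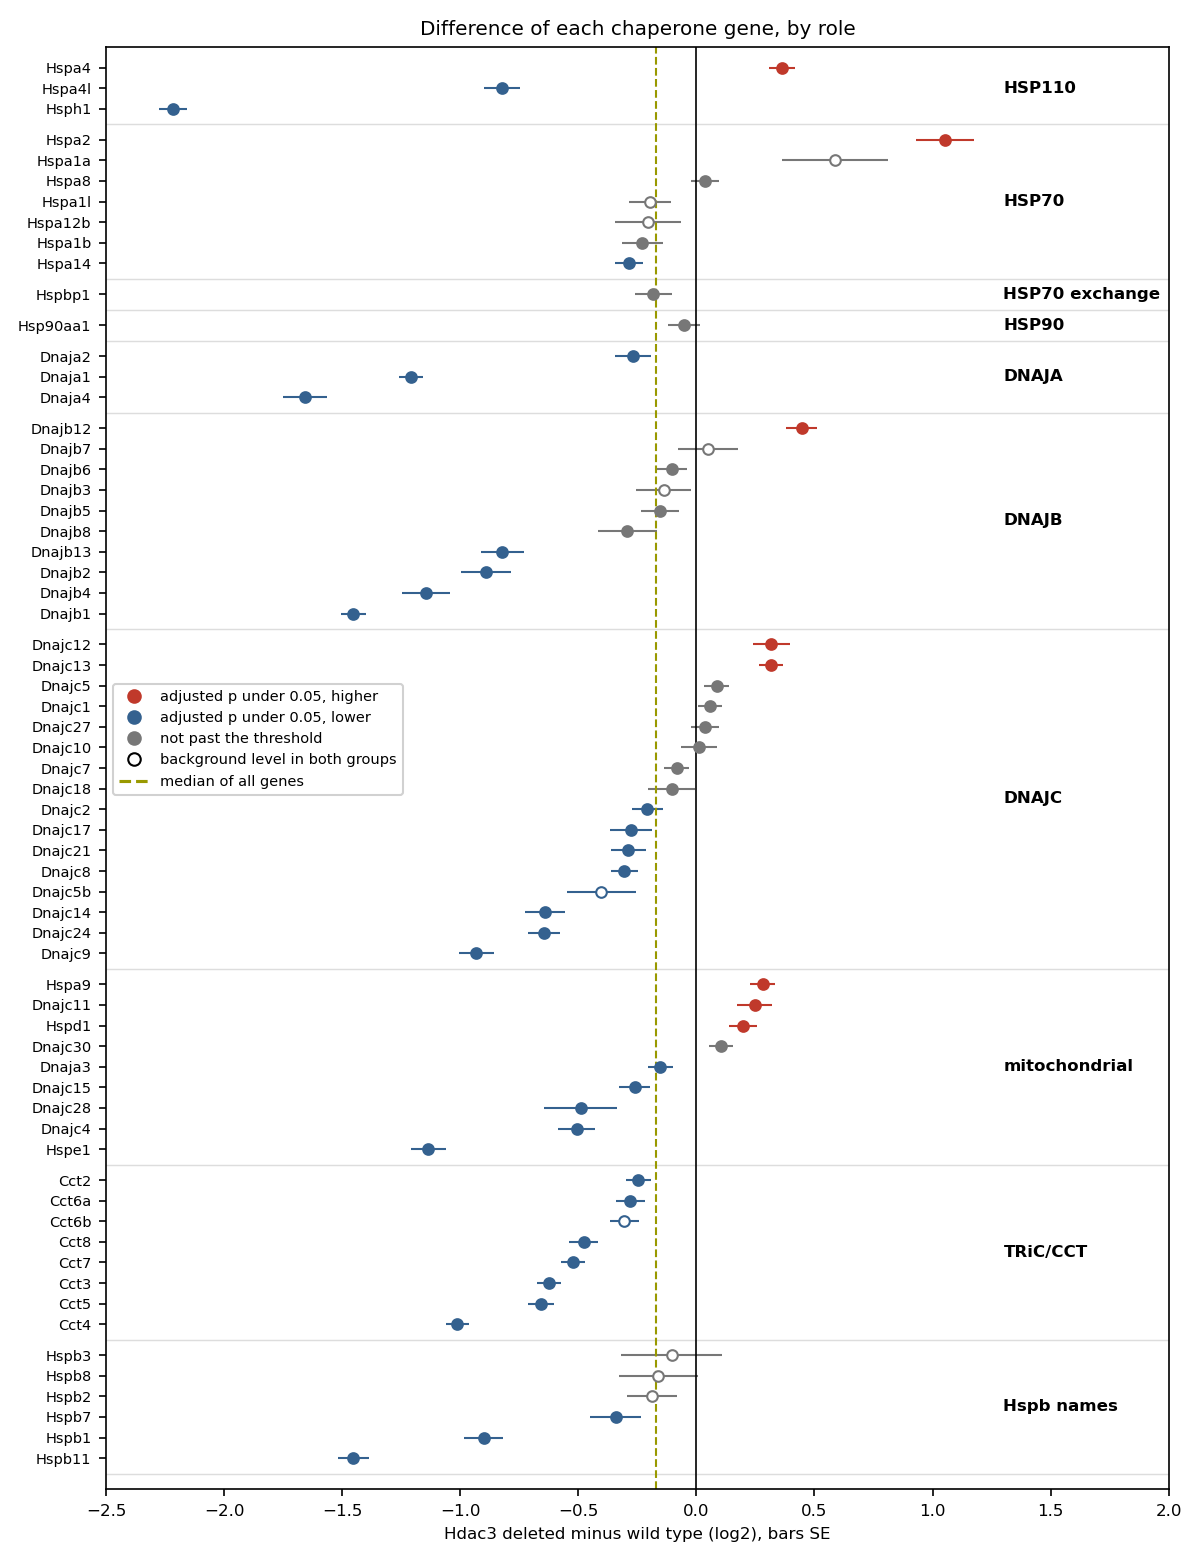
Difference of each of the 64 chaperone genes (Hdac3 deleted minus wild type, log2, horizontal axis) with its standard error, grouped by role. Red points were called higher, blue lower and grey neither, open points were at background level in both groups, and the dashed line marks the median of all genes (-0.17). Hsph1 lies farthest left at -2.22, the Cct genes all lie left of the dashed line, and Hspa8 and Hsp90aa1 lie near 0.

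Start regions were read for the heat shock element, since known heat shock genes are among the members. RefSeq windows (GRCm38.p6) from 250 bases before to 50 bases after a start were at hand for 52 members. The other members, among them Hspa8, Hsp90aa1, Hspa9 and Cct4, had no window and were not searched. A word of 3 alternating units (GAA, TTC and GAA with any 2 bases between them, read on both strands) was in a window of 4 members, or 7.69%, and of 0.662% of all 27025 genes with a window. The 4 were Hsph1, Hspe1, Hspd1 and Dnajb6, whose differences were -2.22, -1.14, 0.196 and -0.102. Windows of Hspd1 and Hspe1 overlap by 285 bases and hold the same words, so that stretch counts for both genes. A word of 2 units, GAANNTTC or TTCNNGAA, both contained in the longer word, was in a window of 17 members (32.7%, and 17% of all genes). Of these 17 members 9 were called lower and 1 higher, and of the other 35 members 22 were lower and 4 higher. A match is a run of letters, not a shown binding site. A member without a match may still hold an element of another form or outside its window, which was not searched.

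The stretches below carry these words in capitals, 5′ to 3′, and set the start region that Hspd1 and Hspe1 share beside those of Hsph1 and Dnajb6. Hspd1 and Hspe1 are transcribed away from each other with 215 bases between a pair of their annotated starts. That interval is given on the Hspe1 strand (chr1:55087933-55088147, plus strand), and its capitals hold 2 overlapping 3-unit words. The Hsph1 word lies 16 to 28 bases after the start (chr5:149636279-149636308, minus strand), and the Dnajb6 word is in the bases before the start (chr5:29735748-29735897, plus strand).
Hspd1 to Hspe1 interval: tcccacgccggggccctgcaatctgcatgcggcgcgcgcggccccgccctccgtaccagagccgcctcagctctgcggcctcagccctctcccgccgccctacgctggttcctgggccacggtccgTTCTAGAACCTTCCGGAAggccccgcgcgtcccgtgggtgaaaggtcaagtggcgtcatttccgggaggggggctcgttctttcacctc
Hsph1: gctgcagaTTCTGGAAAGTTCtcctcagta
Dnajb6: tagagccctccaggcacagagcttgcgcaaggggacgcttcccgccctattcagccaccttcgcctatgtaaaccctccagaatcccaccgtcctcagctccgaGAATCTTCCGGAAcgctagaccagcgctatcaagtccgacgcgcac
Of the 17 members with a 2-unit word 7 were not called, so the choice of the next stretches shows no link with direction. Dnaja4 (chr9:54699439-54699558, plus strand) and Hspb1 (chr5:135887769-135887918, plus strand) are shown as members that fell and hold 2 separate 2-unit words, in capitals, before the start.
Dnaja4: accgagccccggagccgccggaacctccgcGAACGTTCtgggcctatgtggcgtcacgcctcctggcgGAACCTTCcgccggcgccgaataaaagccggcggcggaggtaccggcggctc
Hspb1: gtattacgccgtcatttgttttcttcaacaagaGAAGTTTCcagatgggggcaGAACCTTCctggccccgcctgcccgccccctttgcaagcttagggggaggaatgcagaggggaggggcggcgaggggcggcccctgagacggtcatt

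The HSP110 genes, exchange factors of HSP70, included the deepest fall. Hsph1, also called HSP105, measured 8.08, 8.15 and 8.09 in Hdac3 deleted samples and 10.25, 10.32 and 10.399 in wild type samples. The groups lay far apart, and Hsph1 fell by 2.22 (SE 0.0599, adjusted p = 1.85e-07), or 4.65-fold. Of all genes 0.315% had a lower difference, and a second Hsph1 probe set fell by 2.32. Hspa4l, an HSP110 gene abundant in testis, measured 6.51, 6.41 and 6.34 in Hdac3 deleted samples and 7.14, 7.34 and 7.24 in wild type samples and fell by 0.82 (adjusted p = 7.91e-05).

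Hspa4, the other HSP110 gene, had probe sets that went opposite ways. Its brightest set measured 10.31, 10.35 and 10.27 in Hdac3 deleted samples and 9.99, 9.95 and 9.89 in wild type samples, and rose by 0.36 (adjusted p = 0.00109). The other Hspa4 sets fell by 1.23 and 1.21 (limma, adjusted p = 3.11e-05 and 6.5e-06 over 20380 probe sets). The direction of Hspa4 thus depended on the probe set.

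Of 7 HSP70 genes 1 fell, 1 rose and 5 did not pass the test. These counts moved to 3 lower and 1 higher under median centring, 0 lower and 3 higher under cyclic loess, and 2 lower and 3 higher after a second quantile normalization. Hspa8, the constitutive HSP70 of the cytosol, measured 13.57, 13.58 and 13.44 in Hdac3 deleted samples and 13.47, 13.47 and 13.54 in wild type samples. The groups overlapped, with a difference of 0.037 (SE 0.0612, adjusted p = 0.62). It was called higher under cyclic loess (0.27) and after a second quantile normalization (0.18). Its brightest probe set is of a kind that can match several transcripts, and of the other Hspa8 sets 1 rose by 0.75 while -0.38 in another did not pass the test (adjusted p = 0.0511 by limma over the probe sets).

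The heat-inducible HSP70 genes were near or at background. Hspa1b measured 5.19, 5.49 and 5.41 in Hdac3 deleted samples and 5.59, 5.53 and 5.65 in wild type samples, with every Hdac3 deleted value below the wild type values but no call (difference -0.23, adjusted p = 0.057). Hspa1b was called lower without Hdac3 deleted replicate 2 (-0.29, limma adjusted p = 0.0312), under median centring (-0.39) and after a second quantile normalization (-0.31). Its other probe sets, at background level in both groups, were called lower (-0.43 and -0.46). Hspa1a measured 5.28, 5.04 and 4.35 in Hdac3 deleted samples and 4.42, 4.26 and 4.23 in wild type samples, and only Hdac3 deleted replicate 1 passed the background level. Its difference of 0.59 was not called (adjusted p = 0.0567), and without Hdac3 deleted replicate 3 it was 0.86 and called higher (limma, adjusted p = 0.000824). Hspa1a was also called higher under cyclic loess (0.76), after a second quantile normalization (0.63), with array weights, with another variance prior and with the replicate block. These genes have nearly identical coding sequences, so their signals may be shared. Hspa2, an HSP70 gene of male germ cells, was the 1 member that rose 2-fold. It measured 5.95, 5.91 and 5.76 in Hdac3 deleted samples and 5.01, 4.55 and 4.91 in wild type samples, without overlap. Wild type Hspa2 lay at background level, which makes the rise at least 1.65-fold (adjusted p = 0.000279), and without wild type replicate 2 it was no longer 2-fold.

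Hspa14, which works with Dnajc2 on the ribosome, measured 8.81, 8.83 and 8.86 in Hdac3 deleted samples and 9.15, 9.04 and 9.17 in wild type samples and fell by 0.28 (adjusted p = 0.00454), and Dnajc2 fell by 0.21 (adjusted p = 0.0293). Under cyclic loess both lost the call, at -0.096 and -0.0055. The other Dnajc2 sets above background, at 0.013 and 0.023, were not called. Hspbp1, an exchange factor of HSP70, measured 8.62, 8.41 and 8.64 in Hdac3 deleted samples and 8.68, 8.74 and 8.801 in wild type samples without passing the test (-0.18, adjusted p = 0.0782), and was called lower under median centring (-0.34).

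Hsp90aa1, the inducible cytosolic HSP90, measured 11.099, 11.24 and 11.12 in Hdac3 deleted samples and 11.12, 11.25 and 11.25 in wild type samples. The groups overlapped (difference -0.054, SE 0.0671, adjusted p = 0.503), and it was called lower under median centring (-0.21). Its other probe sets gave 0.022, not called, and -0.35, called lower (limma, adjusted p = 0.0126 over the probe sets).

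Cytosolic J proteins of the DNAJA class, which hand clients to HSP70, all fell. Dnaja1, a partner of Hspa8, measured 10.497, 10.53 and 10.499 in Hdac3 deleted samples and 11.75, 11.67 and 11.73 in wild type samples. The groups stood well apart, and it fell by 1.21 (SE 0.0522, adjusted p = 1.83e-06), or 2.31-fold. Its second set fell by 1.497. Dnaja4 measured 5.64, 5.83 and 5.52 in Hdac3 deleted samples and 7.25, 7.31 and 7.41 in wild type samples. It fell by 1.66 (SE 0.092, adjusted p = 6.19e-06), or 3.16-fold, and its further sets fell by 1.65 and 1.11. Dnaja2 fell by 0.27 (adjusted p = 0.0184), a call lost under cyclic loess (-0.090). A second Dnaja2 set, at -0.22, was not called (limma, adjusted p = 0.077 over the probe sets).

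Of 10 DNAJB genes 4 fell and 1 rose (40% and 10%, beside 38.8% and 22.4% of all genes). The share that fell was thus near that of all genes. Under median centring 7 were lower, and 6 after a second quantile normalization. Dnajb1, also called HSP40 and the main partner of inducible HSP70, measured 9.16, 9.25 and 9.198 in Hdac3 deleted samples and 10.68, 10.64 and 10.65 in wild type samples. The values of the groups were far apart, and it fell by 1.45 (SE 0.053, adjusted p = 8.16e-07), or 2.74-fold. A second set fell by 1.28. Dnajb4, a relative of Dnajb1, measured 6.400, 6.53 and 6.38 in Hdac3 deleted samples and 7.601, 7.39 and 7.76 in wild type samples. Dnajb4 fell by 1.14 (adjusted p = 6.53e-05), and a second set fell by 0.59. Dnajb2, best known from neurons, and Dnajb13, of sperm tails and cilia, fell by 0.89 and 0.82 (adjusted p = 0.00029 and 0.000188).

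Dnajb12, an ER membrane J protein, was the DNAJB gene that rose. It measured 8.56, 8.48 and 8.44 in Hdac3 deleted samples and 7.95, 8.09 and 8.101 in wild type samples, a rise of 0.45 (adjusted p = 0.000873) without overlap, and its second set rose by 0.53. Dnajb6, a suppressor of protein aggregation, measured 10.07, 10.17 and 10.03 in Hdac3 deleted samples and 10.15, 10.16 and 10.27 in wild type samples. The Dnajb6 groups overlapped (-0.102, adjusted p = 0.202; -0.26 and called lower under median centring), while further sets rose by 0.41 and fell by 0.42. Dnajb5 and Dnajb8 did not pass the test (-0.15 and -0.29), but both were called lower under median centring (-0.31 and -0.45) and after a second quantile normalization (-0.29 and -0.31). A second Dnajb5 set fell by 0.42.

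**Figure D2:**
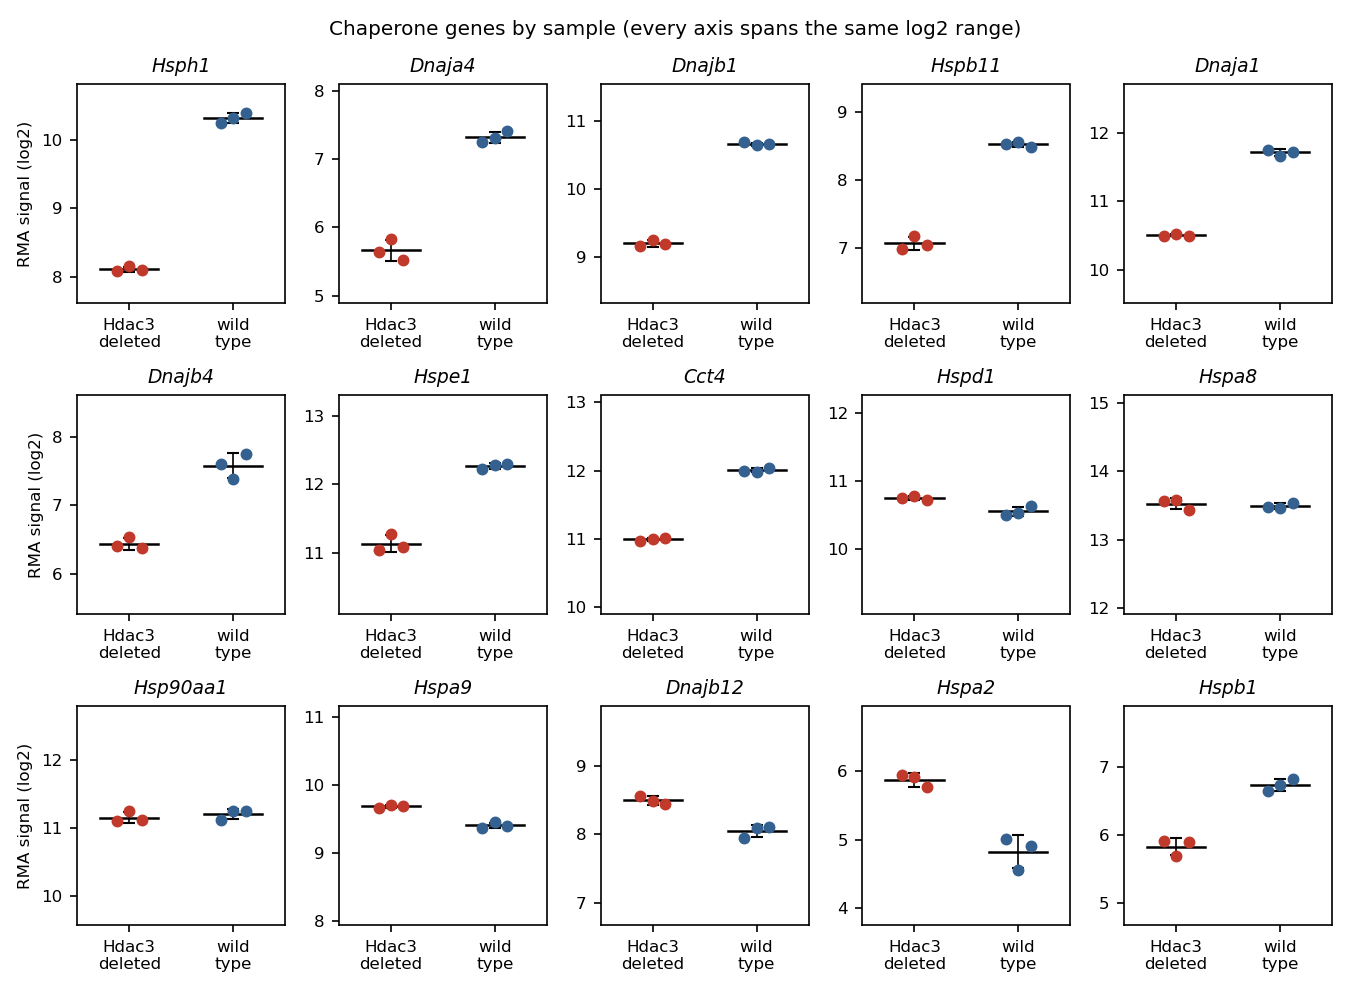
RMA signal (log2) of 15 chaperone genes in each sample, Hdac3 deleted on the left and wild type on the right of each panel, with the mean as a line and the SD as a bar (n = 3 in each group). Axes span the same log2 range around each gene's own centre. Hsph1, Dnaja4, Dnajb1, Hspb11, Dnaja1, Dnajb4, Hspe1 and Cct4 are lower in Hdac3 deleted samples without overlap, and Hspa8 and Hsp90aa1 overlap.

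The 16 other DNAJC genes outside mitochondria moved less, with 8 lower, 2 higher and a median of -0.16. Under cyclic loess 3 were lower and 6 higher. Dnajc9, the histone chaperone, measured 9.13, 9.03 and 8.96 in Hdac3 deleted samples and 10.03, 9.86 and 10.02 in wild type samples and fell by 0.93 (adjusted p = 3.68e-05). Dnajc24, a diphthamide synthesis protein, measured 7.45, 7.56 and 7.48 in Hdac3 deleted samples and 8.05, 8.22 and 8.15 in wild type samples and fell by 0.64 (adjusted p = 0.000143). Dnajc14 fell by 0.64 (adjusted p = 0.000475), and under cyclic loess these 3 genes were the ones called lower. Another Dnajc14 set fell by 0.66, and a further one, at -0.23, was not called (limma, adjusted p = 0.0669 over the probe sets).

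Smaller falls were those of Dnajc8 (-0.31), Dnajc21 (-0.29) and Dnajc17 (-0.28), none of them called under cyclic loess. Dnajc13, which acts on endosomes, rose by 0.31 (adjusted p = 0.00155). Dnajc12, a cochaperone of aromatic amino acid hydroxylases, rose by 0.32 (adjusted p = 0.00989), a call lost under median centring (0.16). Dnajc1, Dnajc5, Dnajc7, Dnajc10, Dnajc18 and Dnajc27 did not pass the test, at -0.104 to 0.085. Under cyclic loess Dnajc1, Dnajc5, Dnajc10 and Dnajc27 were called higher (0.20 to 0.29). Under median centring Dnajc7 and Dnajc18 were called lower (-0.24 and -0.26). Further sets of Dnajc5 (0.18) and Dnajc10 (0.25) were called higher, while the other sets of these genes above background were not called.

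Most subunits of the cytosolic ring TRiC were lower. The 7 Cct genes above background all fell without overlap, with a median of -0.52. Of the 8840 genes above background in at least 1 group, 44.7% were called lower, and 7129 did not overlap in either direction. Cct4 measured 10.97, 11.005 and 11.01 in Hdac3 deleted samples and 12.002, 11.98 and 12.04 in wild type samples, and fell by 1.01 (SE 0.0499, adjusted p = 3.45e-06), or 2.02-fold. Its further sets above background fell by 0.63 to 1.03. Cct5 measured 11.09, 11.102 and 11.04 in Hdac3 deleted samples and 11.69, 11.75 and 11.78 in wild type samples and fell by 0.66 (adjusted p = 4.16e-05). Cct3 measured 10.74, 10.68 and 10.73 in Hdac3 deleted samples and 11.33, 11.36 and 11.33 in wild type samples and fell by 0.62 (adjusted p = 4.16e-05).

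The falls of the ring subunits were unequal in size. Cct7 measured 11.18, 11.098 and 11.18 in Hdac3 deleted samples and 11.69, 11.66 and 11.67 in wild type samples and fell by 0.52. Cct8 measured 10.54, 10.59 and 10.48 in Hdac3 deleted samples and 10.94, 11.03 and 11.07 in wild type samples and fell by 0.48. Cct6a and Cct2 had the smallest falls, with differences of -0.28 and -0.25 (adjusted p = 0.00646 and 0.0065). Under cyclic loess they were at -0.062 and -0.026 without a call, while Cct3, Cct4, Cct5, Cct7 and Cct8 stayed called. Every further set above background of Cct2, Cct3, Cct4, Cct6a and Cct7 was called lower. Tcp1, the first subunit, which the naming rule leaves out, measured 10.96 ± 0.0703 in Hdac3 deleted samples and 11.11 ± 0.1 in wild type samples and was not called (-0.14, adjusted p = 0.126), although it was under median centring (-0.302).

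**Figure D3:**
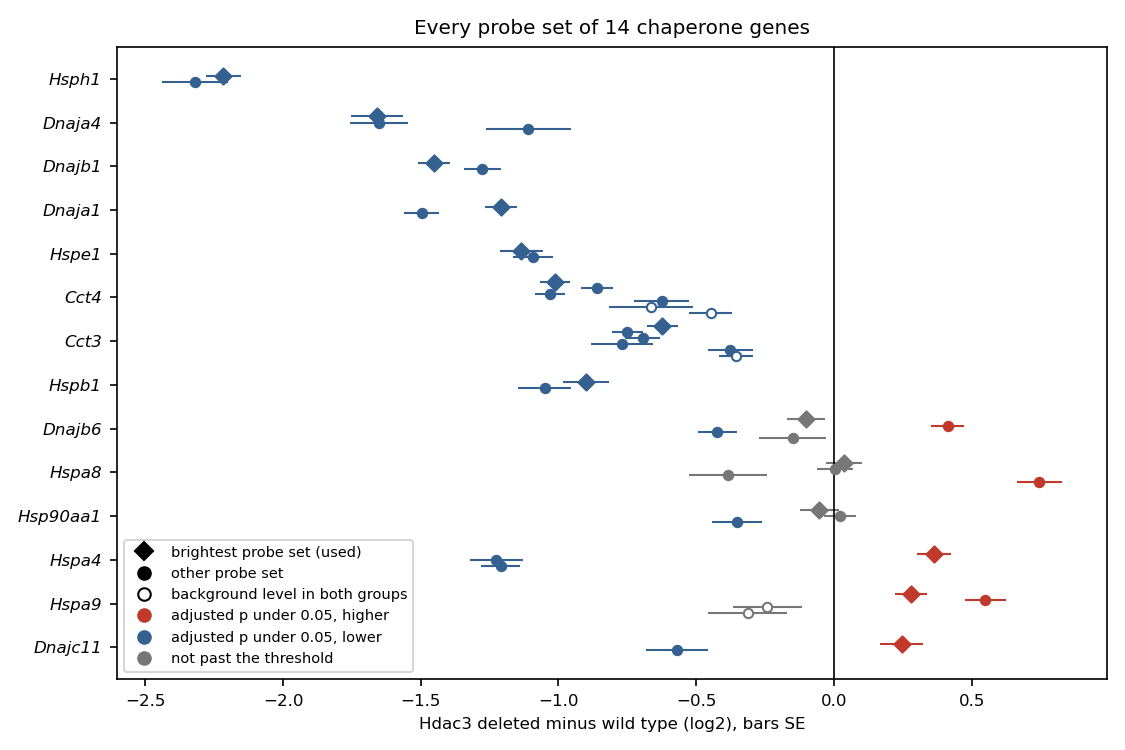
Difference (Hdac3 deleted minus wild type, log2, horizontal axis) with standard error for every probe set of 14 chaperone genes. Diamonds are the brightest set of a gene, circles the others, open symbols lie at background level in both groups, red was called higher, blue lower and grey neither. All sets of Hsph1, Dnaja4, Dnajb1, Dnaja1, Hspe1, Cct4, Cct3 and Hspb1 were called lower, while Hspa4, Dnajb6 and Dnajc11 have calls on both sides of 0.

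Of the 30 members with several probe sets above background, 17 had all of those sets called in the same direction. Opposite calls were found in 3, Hspa4, Dnajb6 and Dnajc11.

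The mitochondrial chaperones were split, with 5 of 9 lower and 3 higher (55.6% and 33.3%, beside 38.8% and 22.4% of all genes). Median centring gave 5 lower and 0 higher, and cyclic loess 2 lower and 4 higher. Hspe1, the lid of the folding chamber, measured 11.04, 11.28 and 11.09 in Hdac3 deleted samples and 12.22, 12.28 and 12.304 in wild type samples. It fell by 1.14 (SE 0.0749, adjusted p = 1.47e-05) without overlap, and its second set fell by 1.09. Hspd1, the chamber itself, measured 10.75, 10.79 and 10.72 in Hdac3 deleted samples and 10.504, 10.53 and 10.64 in wild type samples. Hspd1 was higher without overlap by 0.196 (SE 0.0584, adjusted p = 0.0233). That call was lost under median centring (0.036) and without Hdac3 deleted replicate 1 or 2 or wild type replicate 1 or 2 (adjusted p = 0.0659, 0.0678, 0.0641 and 0.0668 by limma).

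Hspa9, the HSP70 of the mitochondrial matrix, measured 9.67, 9.71 and 9.68 in Hdac3 deleted samples and 9.37, 9.45 and 9.398 in wild type samples. It rose by 0.28 (adjusted p = 0.00277), with 0.55 in a second set, and lost the call under median centring (0.12). Dnajc11, of the outer membrane, rose by 0.25 (adjusted p = 0.0253) in its brightest set and fell by 0.57 in the other. Without Hdac3 deleted replicate 2 or 3, or wild type replicate 1 or 2, the Dnajc11 rise was not called (adjusted p = 0.0768, 0.0754, 0.0725 and 0.0547 by limma). Dnaja3, the J protein partner of Hspa9, measured 8.05, 8.11 and 8.13 in Hdac3 deleted samples and 8.28, 8.23 and 8.25 in wild type samples and fell by 0.15 (adjusted p = 0.0387). The Dnaja3 call was lost on leaving out any 1 of the 6 samples (limma, adjusted p = 0.0641 to 0.131), and its sign turned under cyclic loess (0.025). A second Dnaja3 set above background fell by 0.47 (limma, adjusted p = 0.00811 over the probe sets). In that fit the brightest set was not called (adjusted p = 0.0543). Dnajc4 measured 8.08, 8.02 and 7.996 in Hdac3 deleted samples and 8.69, 8.48 and 8.44 in wild type samples and fell by 0.51 (adjusted p = 0.00111). Dnajc28 and Dnajc15, the second a J protein of the import motor, fell by 0.49 and 0.26, calls lost under cyclic loess (-0.31 and -0.052), and Dnajc30 was not called (0.104) except under cyclic loess (0.29, higher).

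Of the 6 members named Hspb 3 fell and 3 were at background level. Hspb1, the small heat shock protein that binds actin and unfolded proteins, measured 5.91, 5.69 and 5.900 in Hdac3 deleted samples and 6.65, 6.73 and 6.81 in wild type samples. It fell by 0.901 (SE 0.0817, adjusted p = 7.29e-05) without overlap, and its second set fell by 1.05. Hspb11, the intraflagellar transport gene, measured 6.996, 7.18 and 7.05 in Hdac3 deleted samples and 8.53, 8.56 and 8.49 in wild type samples and fell by 1.45 (adjusted p = 2.39e-06), or 2.74-fold, while its second set lay at background level. Hspb7, known from heart muscle, lay just above background and fell by 0.34 (adjusted p = 0.0296), a call lost under cyclic loess (-0.16).

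Partners of the chaperones were counted from lists of known cochaperones. The cytosolic list also held genes of other kinds: the heat shock factor Hsf2, the small heat shock protein Cryab and the TRiC subunit Tcp1. Of the 27 genes measured 19 fell and 4 rose (70.4% and 14.8%, beside 38.8% and 22.4% of all genes). Under cyclic loess 14 fell and 7 rose. Hsf2, Bag2 and Cryab were at background level in both groups, and Hsf2 and Cryab are among the 19 called lower. Pfdn5, a subunit of prefoldin, which delivers actin and tubulin to TRiC, measured 11.303 ± 0.0442 in Hdac3 deleted samples and 12.62 ± 0.0776 in wild type samples and fell by 1.31 (adjusted p = 2.77e-06). The other measured prefoldin genes Pfdn1, Pfdn2, Pfdn6 and Vbp1 fell by 0.69, 0.54, 0.37 and 0.83. Cdc37, which loads kinases onto HSP90, measured 9.73 ± 0.0535 in Hdac3 deleted samples and 10.82 ± 0.0906 in wild type samples and fell by 1.096 (adjusted p = 9.68e-06).

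Among other partners of HSP70 and HSP90, Stip1, which bridges them, fell by 0.91, St13 fell by 0.85 and Chordc1 fell by 0.91. Fkbp4, an HSP90 immunophilin, measured 8.03 ± 0.0228 in Hdac3 deleted samples and 8.97 ± 0.0754 in wild type samples and fell by 0.94 (adjusted p = 1.15e-05). Fkbp5, a related immunophilin induced by glucocorticoids, went the other way. It measured 9.94 ± 0.0516 in Hdac3 deleted samples and 8.805 ± 0.011 in wild type samples and rose by 1.14 (adjusted p = 2.64e-06). Bag3, an HSP70 exchange factor of selective autophagy, and Ppp5c, an HSP90-bound phosphatase, rose by 0.59 and 0.44.

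Of 9 mitochondrial partners 4 fell and 3 rose (44.4% and 33.3%, beside 38.8% and 22.4% of all genes). Under median centring 6 fell and 3 rose, and under cyclic loess 3 fell and 3 rose. Grpel1, the exchange factor of Hspa9, measured 8.84 ± 0.0519 in Hdac3 deleted samples and 9.86 ± 0.0405 in wild type samples and fell by 1.02 (adjusted p = 5.78e-06). Hscb, a J protein of iron-sulfur cluster assembly, measured 8.41 ± 0.0433 in Hdac3 deleted samples and 8.83 ± 0.0514 in wild type samples and fell by 0.43 (adjusted p = 0.000486). Trap1, the mitochondrial HSP90, was not called (-0.082, adjusted p = 0.213), although it was lower under median centring (-0.24). Lonp1, a matrix protease, Clpb, a disaggregase, and Timm44, of the import motor, rose by 0.37, 0.36 and 0.34.

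Of the 5 ER chaperones that the naming rule leaves out 4 rose: Hsp90b1 by 0.82, Dnajb9 by 0.81, Hspa5 by 0.53 and Dnajb11 by 0.31. Dnajc3 was not called (0.048, adjusted p = 0.492). Under median centring 3 of the 5 rose and the lowest difference was -0.11, and under cyclic loess all 5 rose.

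**Figure D4:**
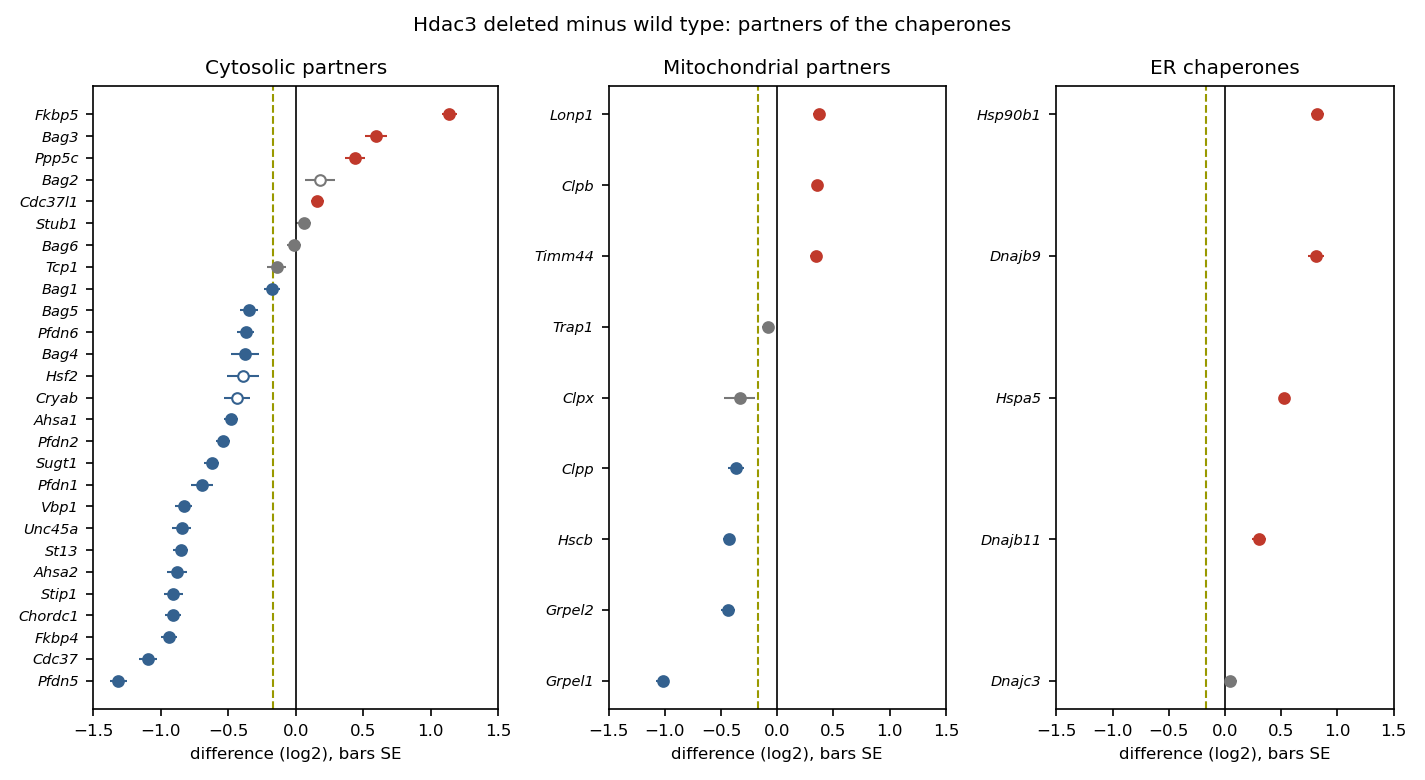
Difference (Hdac3 deleted minus wild type, log2, horizontal axis) with standard error for genes outside the 64 members, namely 27 cytosolic partners, 9 mitochondrial partners and 5 ER chaperones. Red was called higher, blue lower and grey neither, open points lie at background level in both groups, and the dashed line is the median of all genes (-0.17). Pfdn5 at -1.31 and Fkbp5 at 1.14 mark the ends of the cytosolic panel, and every ER chaperone lies right of 0.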

How the data were processed

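Total RNA of 6 samples was measured on Affymetrix Mouse430a arrays. Per the labels' series design text, the authors normalised the arrays by RMA in MAYDAY 2.12 and used Student's t test. What they deposited are log2 signals per probe set. The medians of the arrays were 6.43 to 6.47 in Hdac3 deleted samples and 6.28 to 6.29 in wild type samples. Values after RMA are relative, so total RNA per cell is not seen. The number of arrays limits the precision.

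Of 22690 probe sets 64 controls were left out, and 20380 of the rest had 1 platform gene symbol, 691 several and 1555 none. Groups were taken from the titles and compared with limma 3.58.1 (lmFit and eBayes, two-sided) in R 4.3.3, with tables and plots in Python 3.11.15, pandas 2.3.3 and matplotlib 3.10.9. Background is the range of 27 bacterial control probe sets (2.37 to 5.16), and a fold against it is a lower bound. In simulated data over 12393 genes, 50 genes were changed at each size and 12193 were left unchanged. Of genes changed by 0.5, 1, 2 and 4 log2, 66%, 78%, 100% and 100% were recovered, with 9 false calls. In the real comparison 61.2% of all genes were called, a far larger share. Recovery and false calls may differ there, so these rates do not carry over to it.

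Members and lists were chosen with earlier results of these data known. Named by rule were main genes of each role, members called at 2-fold, the 2 smallest p in each role list, members with opposed probe sets, the 4 cochaperones and 2 mitochondrial partners with the smallest p, Tcp1, Trap1 and Hdac3. Other genes were named after their values were seen.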

Additional observations from a re-analysis of the deposited data

How the results depend on the processing

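Alternatives were the methods' t-test, the replicate number as a block, 3 other scalings, a filter on dim genes, another variance prior, array weights, averaging the probe sets of each gene, dropping multi-transcript probe sets, omitting each sample, and a 1.5-fold threshold. Many of the 42 named genes were chosen for a 2-fold call or a small p in these data. Their counts therefore do not describe all members. Over these 42 genes, 617 of 669 values kept their direction and side of the threshold, 27 lost a call, 22 gained one and 3 turned. Those that turned were Dnaja3 under cyclic loess (0.025), and Hspa4 and Dnajc11 on averaging probe sets (-0.69 and -0.16), whose sets disagree. Against 34 members called lower, cyclic loess gave 20. Against 8 called higher, median centring gave 4, cyclic loess 15 and averaging probe sets 5. Against 8 lower at 2-fold, cyclic loess gave 4, averaging probe sets 5 and the 1.5-fold threshold 17. Hspa2, the 1 member higher at 2-fold, dropped out after quantile normalization again and under median centring (0 in both), and omitting a sample gave 0 to 1, with 0 without wild type replicate 2. The members' median moved to -0.41 under median centring and -0.050 under cyclic loess. Omitting a sample gave 28 to 33 lower and 6 to 8 higher members. Correlations of the deviations of same-numbered samples across genes, which are not replicates, were 0.0885, 0.0646 and -0.201. Those of differently numbered samples were -0.247 to 0.219. With 3 samples in each group, these values cannot decide whether the numbers pair the samples. With the replicate block 32 members were lower and 8 higher. The methods' t-test with Benjamini-Hochberg adjustment gave 30 lower and 8 higher.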
